A study of Mus musculus with 6 samples.

Results

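The smooth-muscle contractile genes of the myoepithelium were followed as a set of 10, namely the actins Acta2, Actg2 and Acta1, the myosin heavy chain Myh11, the regulatory light chain Myl9, the kinase Mylk, the tropomyosins Tpm1 and Tpm2, the calponin Cnn1 and the transgelin Tagln. They were chosen by name, for their place in the contractile apparatus, with earlier results of these data known. That all 10 were among the 651 genes of the deposited tables is therefore not a finding. GFP+ cells were sorted from the mammary glands of pregnant females of the immunodeficient NSG strain (NOD.Cg-Prkdcscid Il2rgtm1Wjl/SzJ), whose milk ducts had received mammary epithelial cells (MECs) from donor littermates on a C57Bl6 background. The WT.GFP+ group came from donors with intact ERα, the ERα-/-.GFP+ group from donors with a germ-line loss of ERα, and both carried an EGFP transgene driven by an actin promoter. Cells of the 2 genotypes were injected into contralateral glands, a design in which they share hosts and the hormones of pregnancy, and glands were pooled to make cell suspensions. RNA was sequenced for 3 samples of each genotype. Number 2 is the only replicate number found in both genotypes. Whether the sequenced samples of the genotypes came from the same hosts is therefore not known. The age of donors and hosts was not given in the sources used here.

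Myoepithelial cells form the outer, basal layer of mammary ducts and alveoli. They are epithelial cells that express keratins together with the contractile proteins of smooth muscle, and at lactation they contract in response to oxytocin and eject milk. Calcium entering such a cell activates myosin light chain kinase, the kinase phosphorylates the regulatory light chain, and smooth-muscle myosin then pulls on actin filaments that are dressed with tropomyosin and calponin. Many of these genes carry CArG boxes, the DNA element bound by serum response factor, near their start sites.

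The deposited tables hold the mean of each genotype and no value of a single sample, so each value below is the authors' mean over 3 samples, with no SD between replicates and no test. The tables list only genes that had passed the authors' thresholds in the comparison of the same groups. A difference in a listed gene is therefore a description, and a gene that is not listed is only known not to have passed. The share of all tested genes that was listed is not known from these tables. Counts of how many genes of a list were listed therefore have no such share beside them. The columns name the groups as selections, and the genotype of each was taken from the rule that chose the genes and from the direction stated by the study, so that the direction was not checked by an independent value. Depth per sample is unknown. An estimate per genotype, from mean count over mean CPM (counts scaled for library size), was 27190483 reads for WT.GFP+ and 29326709 reads for ERα-/-.GFP+. Levels are given as CPM, the linear form of the deposited mean log2 CPM.

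All 10 contractile genes were lower in ERα-/-.GFP+ cells, in tables where 86.9% of the 651 listed genes were lower. Their summed level was 7404 CPM in WT.GFP+ cells and 1925 CPM in ERα-/-.GFP+ cells, which is 3.85-fold lower. Of the 10, 9 were lower by 3-fold or more, which held for 55.8% of all listed genes, and the exception was Acta1. Since every listed gene was chosen in this contrast, these shares describe the tables and say nothing further about the contractile genes. In bulk RNA, fewer cells of a type and less RNA per cell cannot be told apart.

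The 3 muscle actins are alike in sequence, and the sharing of reads between them was therefore checked. Their coding sequences were identical at 884 of 1131 aligned bases, or 78.2%. No run of identical coding bases between any pair exceeded 29, and the reads were 85 bases long. None of the 85-base windows of the 3 actin transcripts occurred in a transcript of another gene. The same was true of Tpm1 and Tpm2, whose longest shared coding run was 17 bases, and of Cnn1, Myh11 and Myl9. The exceptions were Tagln and Mylk, which overlap genes on the opposite strand. Of the windows of Tagln, 37.9% also lay in another gene, mostly in the antisense gene Gm48529 and for 24 windows in Pcsk7. Of those of Mylk, 2.92% lay in the antisense genes E130310I04Rik and Gm21691. None of these 4 overlapping genes was listed. Whether the counting used strand is not given in the sources used here, so the values of Tagln are uncertain to that extent.

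Smooth-muscle α-actin, the product of Acta2 and the usual stain for myoepithelium, was the most abundant of the 10. Acta2 (chr19:34241090-34255590, minus strand, GRCm38) averaged 72368 reads in WT.GFP+ cells against 20416 in ERα-/-.GFP+ cells. No other listed gene had a higher mean count in WT.GFP+ cells, and in ERα-/-.GFP+ cells it was in place 8. Its level was 2691 CPM in WT.GFP+ cells and 656 CPM in ERα-/-.GFP+ cells, a log2 difference of -2.04 or 4.11-fold lower.

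Actg2 (chr6:83512905-83536265, minus strand) encodes the γ-actin of visceral smooth muscle. Its mean count was 4892 in WT.GFP+ cells against 1341 in ERα-/-.GFP+ cells, and its level 182 and 44.2 CPM, 4.12-fold lower. The 2 smooth-muscle actins thus stood in the same proportion in both genotypes. Per kilobase of exon, Acta2 exceeded Actg2 10.5-fold in WT.GFP+ cells and 10.5-fold in ERα-/-.GFP+ cells.

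Acta1 (chr8:123891769-123894751, minus strand) encodes the α-actin of skeletal muscle. Its mean count was 4589 in WT.GFP+ cells against 2015 in ERα-/-.GFP+ cells. Its level was 170 and 68.6 CPM, a log2 difference of -1.31 or 2.48-fold lower, which made it the contractile gene with the smallest difference. The difference of Acta2 was larger than that of Acta1 by 0.73 on the log2 scale, and the ratio of Acta2 to Acta1 per kilobase was 11.1 in WT.GFP+ cells against 6.69 in ERα-/-.GFP+ cells. From the mean counts scaled by estimated depth, the log2 ratio of Acta1 was -1.30 with a 95% interval of -1.34 to -1.25. The upper bounds of the 9 other genes lay below this interval. Such intervals are of the Poisson kind and cover counting error only, not the spread between samples.

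**Figure D1:**
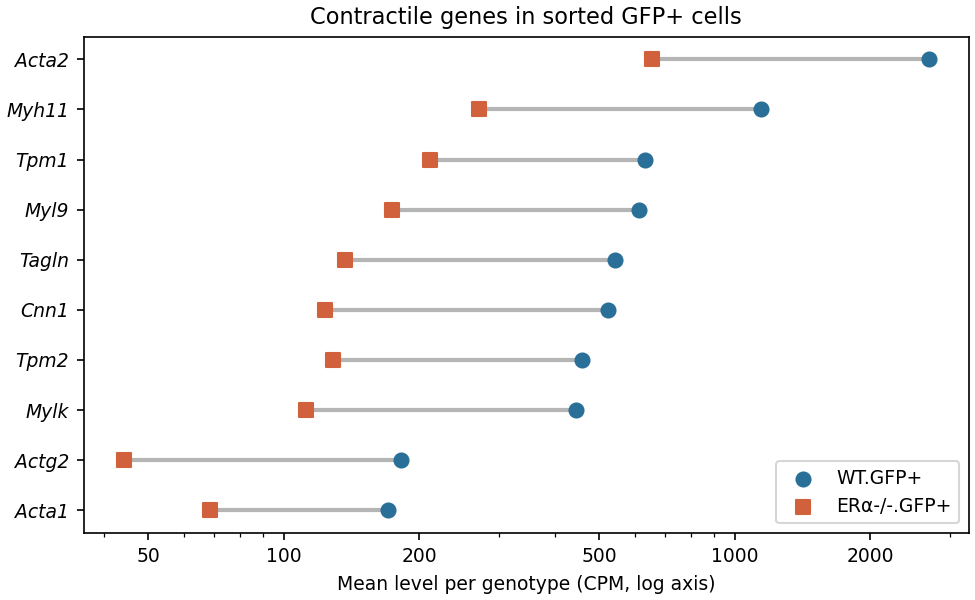
Mean level of each contractile gene in CPM (log axis, authors' mean over 3 samples per genotype), with circles for WT.GFP+ and squares for ERα-/-.GFP+ joined by a grey line. Every square lies to the left of its circle, Acta2 is highest in both genotypes at 2691 and 656 CPM, and the shortest line is that of Acta1.

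Smooth-muscle myosin heavy chain, the motor that slides along these filaments, is made from Myh11 (chr16:14194535-14291372, minus strand). It had the second highest mean count of all listed genes in WT.GFP+ cells, 32112, against 8331 in ERα-/-.GFP+ cells. Its level was 1142 and 272 CPM, a log2 difference of -2.07 or 4.20-fold lower.

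Myl9 (chr2:156775420-156781658, plus strand) encodes the regulatory light chain whose phosphorylation starts contraction. Its mean count was 16578 in WT.GFP+ cells against 5189 in ERα-/-.GFP+ cells, and its level was 614 and 173 CPM, 3.54-fold lower. The light chain was therefore less reduced than the heavy chain, and the ratio of Myl9 to Myh11 per kilobase was 3.52 in WT.GFP+ cells against 4.17 in ERα-/-.GFP+ cells.

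Mylk (chr16:34745210-35002420, plus strand) encodes the kinase that phosphorylates this light chain. It averaged 11936 reads in WT.GFP+ cells against 3365 in ERα-/-.GFP+ cells, with a level of 445 and 112 CPM, 3.97-fold lower. Motor and kinase stood in nearly the same proportion, as Myh11 exceeded Mylk per kilobase 3.81-fold in WT.GFP+ cells and 3.60-fold in ERα-/-.GFP+ cells. The sum of the light chain, the heavy chain and the kinase was 3.95-fold lower, against 3.96-fold for the sum of the 3 actins.

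Tropomyosins lie along the actin filament and govern the access of myosin to it. Tpm1 (chr9:67022590-67049406, minus strand) averaged 17131 reads in WT.GFP+ cells against 6192 in ERα-/-.GFP+ cells, with a level of 634 and 211 CPM, 3.00-fold lower. Tpm2 (chr4:43514711-43523765, minus strand) averaged 12293 and 4110 reads, with a level of 458 and 129 CPM, 3.56-fold lower. As a pair they were 3.21-fold lower in sum, less than the actins. Tpm1 also gives rise to isoforms of non-muscle cells, and the counts per gene do not separate them.

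Calponin, the product of Cnn1, binds actin and dampens the ATPase of myosin, and it is a late marker of smooth-muscle differentiation. Cnn1 (chr9:22099216-22109630, plus strand) had the largest difference of the 10 genes by mean log2 CPM. Its mean count was 14177 in WT.GFP+ cells against 3805 in ERα-/-.GFP+ cells, and its level 525 and 124 CPM, a log2 difference of -2.09 or 4.25-fold lower. By depth-scaled mean counts the largest log2 difference was that of Myh11, at -2.06, ahead of Cnn1 at -2.01. Tagln (chr9:45929619-45936058, minus strand) encodes transgelin, also known as SM22α, a small actin-binding protein of the calponin family. It averaged 14532 and 4287 reads, with a level of 543 and 137 CPM, 3.98-fold lower. Their sum was 4.10-fold lower.

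The median of the 10 differences was -1.99 on the log2 scale, or 3.97-fold lower, and they ran from -2.09 for Cnn1 to -1.31 for Acta1, with an SD of 0.25 over the 10 genes. The SD over all 169 lower genes with a mean count of 1000 or more in WT.GFP+ cells was 0.29, so the spread was of a similar size. By mean log2 CPM, Cnn1, Myh11, Actg2 and Acta2 were lower by more than 4-fold. Tagln and Mylk were lower by slightly less, then followed Tpm2, Myl9, Tpm1 and Acta1, an order that changed with depth-scaled mean counts. By mean log2 CPM the members kept 23.6% (Cnn1) to 40.3% (Acta1) of their WT.GFP+ level. Levels in WT.GFP+ cells and differences had a Spearman's rank correlation of -0.24 over the 10 genes, which were measured in the same libraries. The WT.GFP+ level is itself a part of each difference, and error in it pulls such a correlation towards negative values. The correlation therefore does not show whether level and difference are related.

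**Figure D2:**
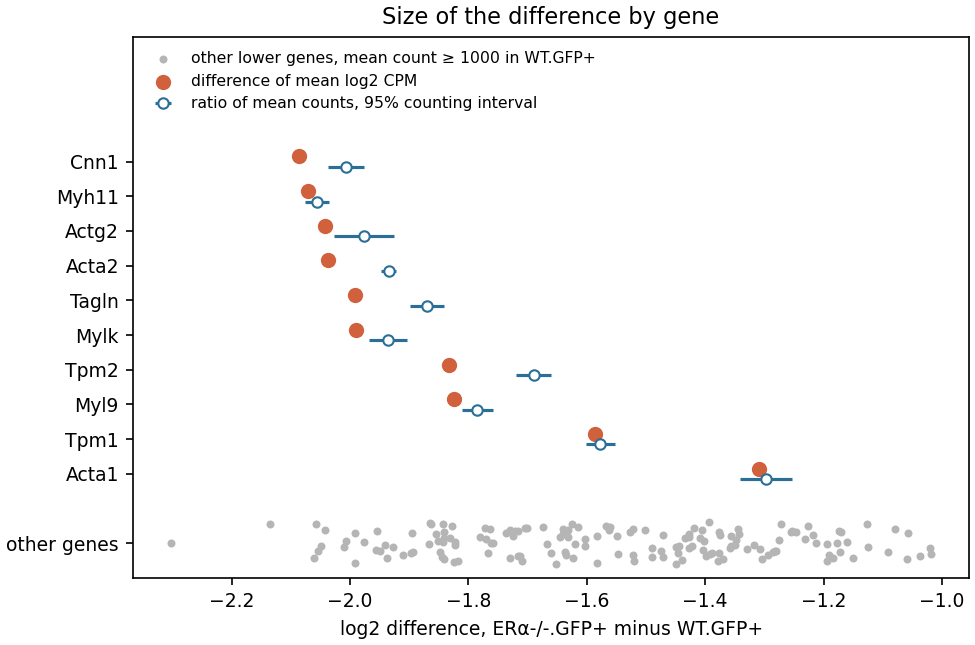
Log2 difference between ERα-/-.GFP+ and WT.GFP+ for each contractile gene, as the difference of mean log2 CPM (filled circles) and as the ratio of depth-scaled mean counts with its 95% counting interval (open circles), above the other lower genes with a mean count of 1000 or more in WT.GFP+ cells (grey). Of the filled circles, Cnn1 lies farthest left at -2.09 and Acta1 farthest right at -1.31, both inside the grey range of -2.30 to -1.02. Of the open circles, Myh11 lies farthest left at -2.06.

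Well-counted genes are the fairer background for these genes, because the largest differences in the tables are of genes with few reads. Among the 159 other lower genes with a mean count of 1000 or more in WT.GFP+ cells, the median log2 difference was -1.56 and 47.2% were lower by 3-fold or more. Of these genes, 11 were lower by more than the median of the contractile genes. All of them had been selected in the same contrast, so the medians are set side by side without a test.

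The contractile genes made up a large part of the RNA in the lower list. Of all counts in the 566 lower genes, the 10 held 23.4% in WT.GFP+ cells and 19.1% in ERα-/-.GFP+ cells. Without correction for length, they took 8 of the 20 highest mean counts among all listed genes in WT.GFP+ cells, and the 2 that did not were Actg2 and Acta1. By their summed CPM they made up 0.740% of the reads of WT.GFP+ cells and 0.193% of those of ERα-/-.GFP+ cells.

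Levels of different genes compare only per length, since a long transcript gives more reads than a short one. In CPM per kilobase of merged exons, Acta2 led with 1225 in WT.GFP+ cells, followed by Myl9 with 528 and Tagln with 273. Then came Cnn1 with 192, Tpm2 with 157 and Myh11 with 150. Actg2 with 117, Acta1 with 111 and Tpm1 with 97.8 were close to each other, and Mylk was last with 39.5. The place of Tpm1 depended on the length used, since with the longest transcript in place of merged exons it stood at 219 per kilobase, in place 5 and next to Cnn1 at 220.5. Whether neighbours in this order differ beyond the spread between samples was not tested.

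In ERα-/-.GFP+ cells the order per kilobase began in the same way, with Acta2 at 299, Myl9 at 149, Tagln at 68.7 and Cnn1 at 45.2. By merged exons Acta1 followed at 44.7, in place 5 against place 8 in WT.GFP+ cells. Tpm2 stood at 44.2, Myh11 at 35.8, Tpm1 at 32.6, Actg2 at 28.4 and Mylk at 9.93. By the longest transcript Tpm1 stood at 73.1 in place 4, Cnn1 in place 6 and Acta1 in place 7, against place 9 for Acta1 in WT.GFP+ cells. The distance from the highest to the lowest gene was 31.0-fold in WT.GFP+ cells and 30.1-fold in ERα-/-.GFP+ cells.

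The deposited means carry a trace of how unevenly the raw counts of a gene were spread over the 3 samples. The mean count is an average on the linear scale and the mean log2 CPM an average on the log scale. The former lies above the latter by more where raw counts differ more between samples. The gap, set to 0 for the gene of 1000 or more mean counts with the most even raw counts, is called the unevenness index here. The unknown depths of the samples are not taken out of it. An evenly expressed gene can therefore score above 0, and the index gives no SD.

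In WT.GFP+ cells the contractile genes were among those with the more even raw counts. Their median index was 0.013 in log2 units, against 0.026 over the 220 well-counted listed genes, and Myh11 alone, with 0.074, lay above that median. In ERα-/-.GFP+ cells their median was 0.126, against 0.070 over the 140 well-counted genes. There 9 of the 10 lay above the median, from Acta1 at 0.073 up to Tpm2 at 0.195, and Tpm1 lay at it with 0.070. By this index the raw counts of the contractile genes were less even than those of the typical well-counted gene among the ERα-/-.GFP+ samples. Whether their expression was less even, and which sample was high or low, is not known from means. In a list of basal epithelial markers, the median index was 0.054 over 18 well-counted genes in WT.GFP+ cells, above that of the contractile genes, and 0.132 over 8 such genes in ERα-/-.GFP+ cells. In a list of leukocyte markers it was 0.0085 over 11 genes in WT.GFP+ and 0.037 over 12 genes in ERα-/-.GFP+ cells.

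**Figure D3:**
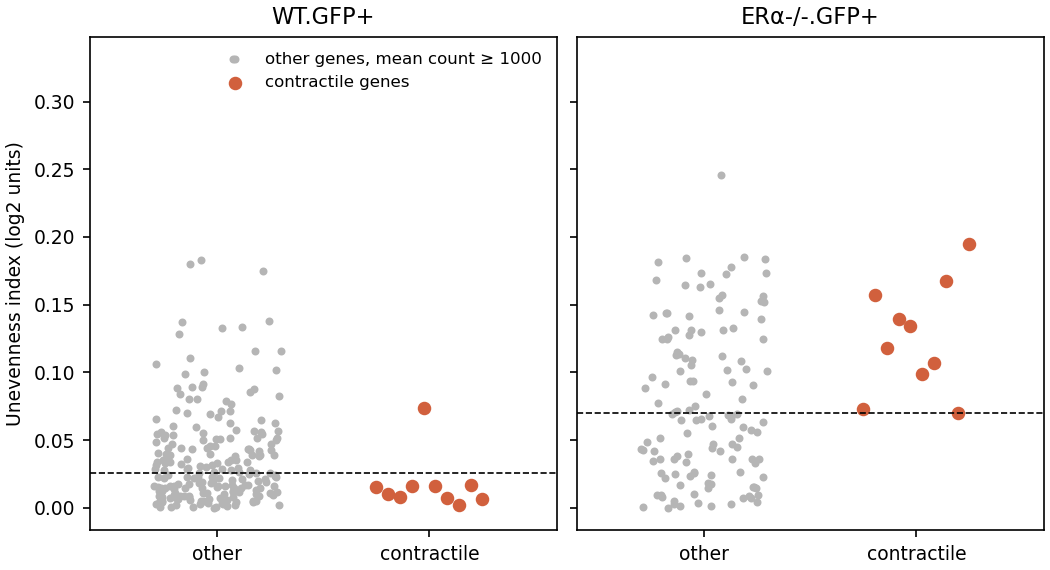
Unevenness index of raw counts in log2 units for listed genes with a mean count of 1000 or more (grey) and for the contractile genes (orange), with WT.GFP+ on the left and ERα-/-.GFP+ on the right. Dashed lines mark the median of 0.026 and 0.070, and 1 of the 10 contractile genes lies above the line in WT.GFP+ against 9 in ERα-/-.GFP+ cells.

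Other genes of the contractile cell were looked up by role. Of 28 further contractile and thin-filament genes, 5 were listed, 4 of them lower, against 86.9% of all listed genes. Cald1, which encodes the actin-binding caldesmon, averaged 9400 reads in WT.GFP+ cells against 3558 in ERα-/-.GFP+ cells, a log2 difference of -1.57. Smtn, for smoothelin, had 4000 and 1396 counts with a difference of -1.64. Lmod1, for the smooth-muscle leiomodin that starts actin filaments, had 777 and 239 counts with a difference of -1.83, and Actn1, for the cross-linker α-actinin, had 3073 and 1491 with a difference of -1.13. The gene listed as higher was Myl3, a light chain of the heart and slow muscle, with a mean count of 0 and 4, for which no fold is given. The cytoplasmic actins Actb and Actg1, the non-muscle myosins Myh9 and Myh10 and the non-muscle light chains Myl12a and Myl12b were not listed.

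Contractile filaments pull on the membrane and matrix through adhesion complexes. Of 43 genes of fibre anchorage, 12 were listed, all 12 lower, with a median log2 difference of -1.53. Of all listed genes 86.9% were lower, so this direction is that of most of the tables. Csrp1, a LIM protein of actin bundles, averaged 20341 reads in WT.GFP+ cells against 9802 in ERα-/-.GFP+ cells, with a difference of -1.17. Palld, for the scaffold palladin, had 5386 and 1762 counts and a difference of -1.83. Pdlim3, a partner of α-actinin, had 3872 and 1160 counts and a difference of -1.84. These genes thus spanned differences from that of Csrp1, smaller than any contractile gene, to that of Pdlim3, close to Tpm2. Fermt2 had a difference of -1.45, Tns1 of -1.60 and Pdlim7 of -1.25, and among the other 6 were Fblim1, Flnc, Pdlim4, Dmd and Sspn.

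Of 54 genes that start or restrain contraction, 9 were listed, all 9 lower, against 86.9% of all listed genes. Their median log2 difference was -1.55. Oxtr, the oxytocin receptor through which milk ejection is triggered, averaged 4995 reads in WT.GFP+ cells against 1495 in ERα-/-.GFP+ cells, a difference of -1.90. Gnaq, the G protein subunit that couples such receptors to calcium release, had 2254 and 1082 counts and a difference of -1.21. Ppp1r12b, a targeting subunit of the phosphatase that reverses the work of Mylk, had 1228 and 499 counts and a difference of -1.37. The kinase and the phosphatase subunit were thus both lower, Mylk by more. Kcnmb1, a subunit of the calcium-activated potassium channel, had a difference of -1.91, Prkg1, the cGMP-dependent kinase, of -1.86, and Arhgef25, a guanine nucleotide exchange factor, of -1.30. The other 3 were Plcb1, Ppp1r14a and Kcnma1.

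Serum response factor and its myocardin-family partners drive the contractile genes of smooth muscle, and TEAD factors bind the MCAT element in some of their promoters. Of 32 genes of this programme, 2 were listed. Tead1 averaged 865 reads in WT.GFP+ cells against 311 in ERα-/-.GFP+ cells, and Tead3 had 212 and 84, both with a log2 difference of -1.45. Srf, Myocd, Mkl1 and Mkl2 were not listed.

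Promoter windows of 300 bases, with 250 before and 50 after the start site, were read from a RefSeq table for GRCm38.p6, which held 7 of the 10 genes. Actg2, Myh11 and Tagln had no entry. Each of the 7 was read at a single start site, and other starts of the same gene were not read. The window of Mylk, at chr16:34784700-34784999, lies inside the gene and not at its outermost annotated start. A full match to the CArG box on either strand lay in 2 of the 7, Acta1 and Myl9, against 1.63% of the 32851 windows of all genes. They are shown 5′ to 3′ on the strand of the gene, with the box in capitals. Both were shown because no other window of the 7 held a full match. By mean log2 CPM, Acta1 had the smallest difference of the 10 genes and Myl9 the third smallest. Tpm1, with the second smallest at -1.59, had no full match. By depth-scaled mean counts Tpm2, at -1.69, had a smaller difference than Myl9, at -1.78. Whether the box goes with the size of the difference was not tested. The stretch of Acta1 is at chr8:123894819-123894868 on the minus strand and that of Myl9 at chr2:156775283-156775332 on the plus strand.
Acta1: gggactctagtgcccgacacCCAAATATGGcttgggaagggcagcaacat
Myl9: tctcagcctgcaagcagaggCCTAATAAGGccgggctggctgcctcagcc

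With 1 mismatch allowed, Acta2 and Tpm1 also matched, against 21.1% of all windows. The stretch of Acta2, the most abundant of the genes, holds 2 such matches within 100 bases, which start 84 and 34 bases upstream of the start site. It is at chr19:34255378-34255477 on the minus strand, with both matches in capitals.
Acta2: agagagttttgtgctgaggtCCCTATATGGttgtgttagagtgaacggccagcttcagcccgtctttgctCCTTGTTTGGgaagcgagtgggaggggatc

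The MCAT element, searched as CATTCC on both strands, lay in the windows of Acta1, Acta2, Mylk and Tpm1, against 14.7% of all windows. The oestrogen response element, searched as GGTCA, 3 bases of any kind and TGACC, lay in none of the 7, against 0.0700% of all windows. Its single arm GGTCA, which overlaps the full element and was searched on both strands, lay in 3 of the 7, namely Acta1, Mylk and Tpm2, against 40.5% of all windows. Such matches describe the letters of short windows and not binding.

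The contractile genes were set beside markers of cell types that the sort could hold. Of 26 basal epithelial markers, 19 were listed, all 19 lower, against 86.9% of all listed genes. Their median log2 difference was -1.82, and their summed level 2852 CPM in WT.GFP+ cells and 862 CPM in ERα-/-.GFP+ cells. Krt14, a keratin of basal cells, averaged 15943 and 5099 reads and a difference of -1.82. Krt17 had a difference of -1.96, Igfbp2 of -1.76, and the laminin chain Lamb3 of -1.06. The contractile genes and the basal markers were thus lower together, and the part of the share of basal cells in the contractile levels was not tested.

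None of 20 markers of vascular smooth muscle and pericytes was listed, among them Rgs5, Pdgfrb, Cspg4, Notch3, Kcnj8, Abcc9 and Des. None of 17 markers of fibroblasts and myofibroblasts was listed either. Of 26 skeletal-muscle genes, Mb alone was listed, the gene of the oxygen-binding myoglobin, with a mean count of 101 and 24.3 and a log2 difference of -2.31. The defining skeletal genes Ckm, Mylpf, Tnnt3, Actn3, Myh4 and Neb were not listed, although Acta1 was. Of 18 luminal markers Pgr alone was listed, the progesterone receptor gene, with a mean count of 129 and 36.3 and a difference of -1.82. A marker that is not listed may still be expressed at a like level in both genotypes. The RefSeq promoter table holds 27025 genes, against 651 listed here, so a short list of any kind may have few or no listed genes. These counts therefore do not show that a cell type was absent or unchanged.

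The listed leukocyte genes moved the other way. Of 26 such markers, 12 were listed, all 12 higher in ERα-/-.GFP+ cells, with log2 differences from 1.01 to 1.27. Of all 651 listed genes, 85 were higher. The other leukocyte markers, among them Ptprc, Cd3e, Cd4 and Cd8a, were not listed. The summed level of the 12 was 4090 CPM in WT.GFP+ cells and 8973 CPM in ERα-/-.GFP+ cells. Gzmb, for the cytotoxic protease granzyme B, averaged 31309 and 83015 reads, Nkg7 of 23269 and 51237, Rac2 of 13229 and 29059, Coro1a of 12158 and 27905, Arhgdib of 9281 and 20623, and Trbc1 of 6899 and 15428. The text on these libraries speaks of sorting for GFP. The flow cytometry methods also list antibodies to CD45, a leukocyte surface protein, and to CD31 and Ter119, of endothelial and erythroid cells, without saying whether cells that bound them were gated out here. CPM are relative to the RNA of the whole sort, and the part of the leukocyte genes in the lower contractile levels was not tested.

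**Figure D4:**
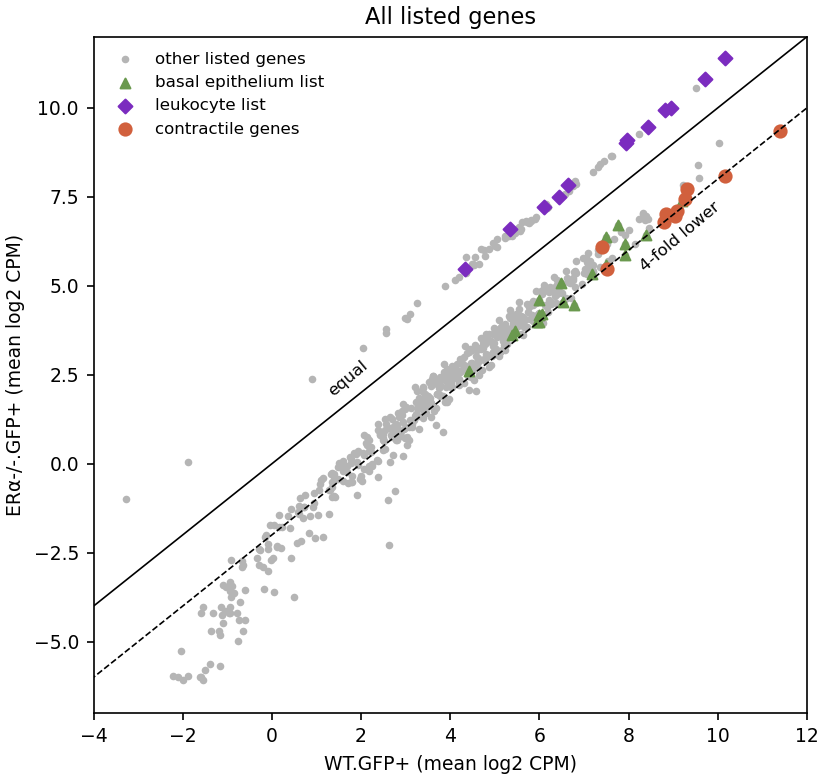
Mean log2 CPM of the listed genes in WT.GFP+ (x axis) and ERα-/-.GFP+ cells (y axis), without 17 genes at the floor of the deposited scale in a genotype, with lines at equal level and at 4-fold lower. The contractile genes lie towards the upper end of the 4-fold line, from Cnn1 at 4.25-fold to Acta1 at 2.48-fold lower. The basal markers run from Col17a1 at 4.93-fold to Lamb3 at 2.08-fold lower. The 12 leukocyte genes lie above the line of equal level.

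The 5 well-counted listed genes whose log2 difference lay nearest to the median of the contractile genes were picked out of 210 candidates. They were Lama3 and Col4a5, which encode a laminin and a collagen IV chain of basement membranes, both with a difference of -1.99, Fmod, for the collagen-binding fibromodulin, with -1.98, Gm5388, with -2.01, and Fzd7, a Wnt receptor, with -2.01. Their mean counts in WT.GFP+ cells and ERα-/-.GFP+ cells were 2699 and 705 for Lama3, 2585 and 756 for Col4a5, 7993 and 2105 for Fmod, 1329 and 387 for Gm5388, and 1817 and 492 for Fzd7. Gm5388 is annotated as a processed pseudogene, so that its counts may come from reads of another gene. Likeness here rests on the means of 2 genotypes alone.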

How the data were processed

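RNA from 10 genes was followed in 3 WT.GFP+ and 3 ERα-/-.GFP+ samples. The authors made cDNA with an oligo-dT, full-length SMART-Seq kit, sequenced single-end reads of 85 bases, mapped them to mm10 in HTSstation and compared genotypes with edgeR in ASAP. The counter, the annotation and the use of strand are not given in the sources used here. The deposited tables, 2 in all, hold for each gene past the authors' thresholds the mean raw count and the mean log2 CPM of each genotype. They also hold the authors' fold changes, p-values and FDR, which were not used. No column belonged to another series.

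The tools were numpy 2.4.6, pandas 2.3.3 and scipy 1.17.1 under Python 3.11.15, with figures drawn in matplotlib 3.10.9. Depth per genotype was the median ratio of mean count to mean CPM over genes of 1000 or more mean counts (220 and 140 genes). Counting intervals were taken from the summed counts of 3 samples at a confidence level of 95%. Lengths and positions came from GENCODE M21, and windows of 85 bases were compared across its transcripts. The estimates of depth and of log2 differences were tested on simulated data, and the other steps were not. The 10 genes and the 10 other lists were chosen with earlier results of these data known. All members, up to 6 listed genes a list by mean count in WT.GFP+ cells, and the 5 most alike genes were named; listed genes beyond the 6, and some genes that were not listed, were named without values, and a few items under the rule are not reported here. Whether the samples of a genotype came from separate cultures or animals was not stated.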

Additional observations from a re-analysis of the deposited data

How the results depend on the processing

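All 10 genes stayed lower under each scaling tried, which adds no support, since each had been listed for its difference in this contrast. The median log2 difference of -1.99 became -1.90 with mean counts scaled by estimated depth, -1.79 with unscaled mean counts and -1.88 as a mean over the genes, and it was -1.99 without Acta1. The summed level in ERα-/-.GFP+ over that in WT.GFP+ cells, 0.260, became 0.269 without Acta2 and 0.273 with scaled counts. With scaled counts 8 genes in place of 9 were lower by 3-fold or more, since Tpm1 lies at the limit. Among the 508 listed genes that averaged 100 reads or more in WT.GFP+ cells, 84.8% were lower and 46.5% were lower by 3-fold or more. With the longest transcript as the length, 5 of the 10 genes kept their place in the order per kilobase. Windows of 50 bases were shared with another gene in 5 of the 10 genes in place of 2, and the CArG box matched in 4 in place of 2 with 1 mismatch. Of 20 recomputed differences of single genes 17 moved past their counting interval and none changed sign. No paired analysis was possible because the tables hold means of each genotype only. For the same reason samples were not left out in turn and no other normalization was run, and the limit on each value is the unknown spread between samples.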
